A study of Homo sapiens with 6 samples.

Results

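The 7SK small nuclear RNA and the 7 protein-coding genes of its ribonucleoprotein and of the kinase it holds were examined: RN7SK, LARP7, MEPCE, HEXIM1, HEXIM2, CDK9, CCNT1 and CCNT2. They were taken by Ensembl gene identifier, with RN7SK kept apart from its pseudogene copies (the RN7SKP genes), and make up 8 of the 63190 gene identifiers measured. All 8 were among the 20714 genes that reached a mean of at least 1 RPKM (read density, scaled to transcript length and library size) over the libraries, the filter set for testing.

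The RNA-seq compared cells that overexpress the D391N mutant of DIS3L2 (3 libraries) with control cells (3 libraries). DIS3L2 is a cytoplasmic 3′-to-5′ exonuclease that degrades RNAs carrying untemplated uridines, and D391N carries a change in its catalytic site. The cells are labelled HEK293, a human embryonic kidney line, and the study's methods name HEK293T-Rex cells with a stably integrated, doxycycline-inducible, Flag-tagged D391N construct and HEK293T-Rex FlipIn cells as the control. Deletion of the endogenous DIS3L2 gene is stated for neither group. The D391N libraries come from one engineered line and the controls from another, so the construct and the line cannot be told apart, and it is not stated whether the control cells also received doxycycline. Nor is it stated whether the replicates were separate cultures, so the p-values measure the spread between these libraries only. Total RNA was depleted of ribosomal RNA and sequenced as single reads, with 3 libraries to a lane. Which libraries shared a lane or a preparation is not stated, so these may coincide with the groups.

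DIS3L2, the gene overexpressed, was measured at 369, 467 and 512 RPKM under overexpression and at 11.8, 12.9 and 14.6 RPKM without it (log2 fold change 5.08, limma adjusted p = 0.000268). Depth differed 1.6-fold at most between libraries. Across genes, the D391N libraries correlated with each other at r = 0.885 to 0.935 and the controls at 0.959 to 0.977, so the D391N libraries were the more spread group. The share of reads in transcripts shorter than 200 nt was 2.43%, 0.342% and 1.52% for D391N replicates 1, 2 and 3, against 3.18%, 3.08% and 2.89% for the controls. Of 8 HEK293 markers, 7 (VIM, KRT8, KRT18, NEFL, INA, LIN28B, PAX2) were above 1 RPKM in every library, and NEFM was below it and not tested. None of the 7 was called, beside 0.14% of all genes tested. VIM, KRT8 and KRT18 were lower in D391N without overlap, beside 20.7% of all genes tested. LIN28B was higher without overlap, beside 10.5%. Among markers of other cell types, PTPRC (1.34 to 1.77 RPKM) and COL1A1 (2.03 to 4.05 RPKM) reached the filter and overlapped between the groups, and CD3E, ALB and MYOD1 did not reach it.

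The 7SK RNA is transcribed by RNA polymerase III and is one of the abundant non-coding RNAs of the nucleus. MEPCE caps its 5′ end and LARP7 holds its 3′ uridine end, and both keep the RNA stable. On this scaffold a HEXIM1 or HEXIM2 dimer inhibits P-TEFb, the kinase CDK9 with cyclin T1 or T2, and release of P-TEFb lets RNA polymerase II pass from pausing into productive elongation. Cells in which P-TEFb is set free are known to raise HEXIM1 transcription as a feedback.

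RN7SK is 331 nt long, with 1 transcript in the deposited table (ENST00000365328, gene ENSG00000202198), annotated as a non-coding RNA on chromosome 6 (GRCh37, chr6:52860418-52860748, plus strand). Its ends are shown because the proteins measured here are known to hold them. The letters come from the GENCODE transcript set and are written as DNA. In the 5′ stretch, from position 1 on, capitals mark each GATC, the motif (GAUC in RNA) of the hairpin that HEXIM1 binds, and the 3 copies in it, starting at positions 13, 42 and 64, are all those of the RNA. In the 3′ stretch, positions 272 to 331, capitals mark the terminal run of 3 T, the uridines that LARP7 holds and to which an untemplated uridine tail would be added.
RN7SK 5′ stretch: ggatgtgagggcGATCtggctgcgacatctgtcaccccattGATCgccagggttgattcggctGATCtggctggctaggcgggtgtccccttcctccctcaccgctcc
RN7SK 3′ stretch: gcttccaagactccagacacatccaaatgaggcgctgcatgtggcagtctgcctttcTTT

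The level of 7SK RNA was lower in every D391N library than in every control library, the widest difference among the 8 genes, but it did not pass the test with all 6 libraries. LARP7 was higher in every D391N library and CDK9 was lower in every one by a small margin, while MEPCE, HEXIM1, HEXIM2, CCNT1 and CCNT2 overlapped between the groups. None of the 8 genes had a Benjamini-Hochberg adjusted p under 0.05 in limma. Over all genes tested this threshold called 0.14%, or 29 of 20714, with 28 lower and 1 higher in D391N. At an unadjusted p under 0.05, 2 of the 8 (RN7SK and LARP7) passed, beside 22.7% of all genes tested. Of the 8 genes, 2 were lower in D391N without overlap (RN7SK and CDK9), beside 20.7% of all genes tested, and 1 was higher without overlap (LARP7), beside 10.5%. A fit without D391N replicate 1 called 3 of the 8 (RN7SK, LARP7 and MEPCE), beside 10.9% of all genes tested. This library decides the calls, for genes at large as for these: without it 2261 genes were called instead of 29.

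**Figure D1:**
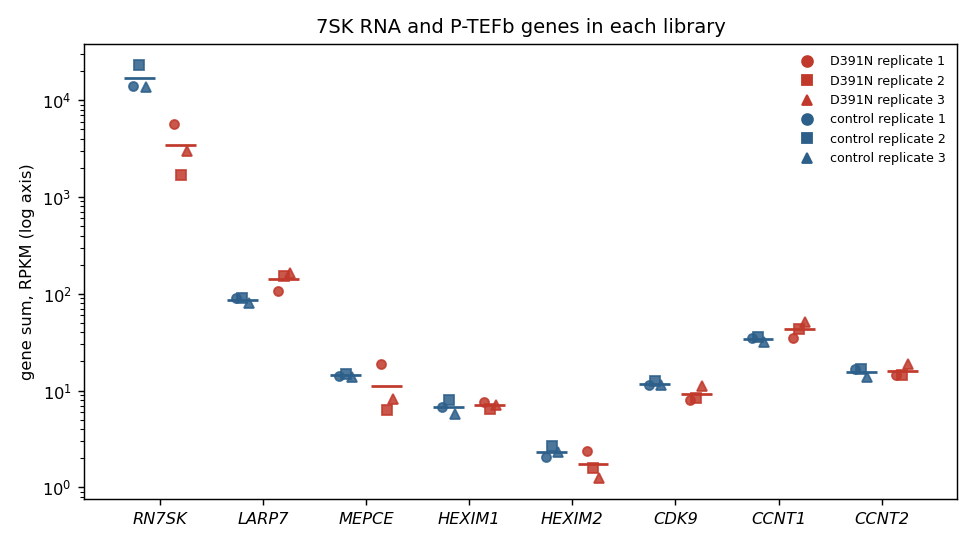
Gene sums in RPKM (log axis) of RN7SK and its 7 partner genes, with 1 point per library (blue, control; red, D391N; marker shape, replicate number) and a bar at the mean of each group of 3. The 3 D391N points of RN7SK, at 1677 to 5701 RPKM, lie under the 3 control points at 13758 to 23331 RPKM, whereas most of the partner genes overlap.

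The D391N libraries held RN7SK at 5701, 1677 and 2970 RPKM (replicates 1, 2 and 3), and the control libraries held it at 13976, 23331 and 13758 RPKM. The highest D391N library reached 41.4% of the lowest control library, and the D391N libraries differed among themselves by 3.40-fold, against 1.70-fold among the controls. The means were 3449 ± 2054 and 17022 ± 5465 RPKM (SD, n = 3 each), a level 4.94-fold higher in the controls. On the log2(RPKM + 0.1) scale the difference was -2.43 (SE 0.61), with a limma adjusted p of 0.113 and an unadjusted p of 0.0058. The two-sided exact permutation test gave p = 0.10, the smallest that 3 libraries against 3 allow. As a description, 1.73% of all genes tested had a fold change at or below that of RN7SK, and the median over all genes was -0.090.

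Of all reads, 7SK RNA took 0.189%, 0.0555% and 0.0983% in D391N, whereas it took 0.463%, 0.772% and 0.455% in the controls. Ordered by level within a library, it was the 20th, 38th and 22nd most abundant gene in D391N replicates 1, 2 and 3, against the 10th, 3rd and 13th in the controls. The number of reads behind these values was equivalent to 9732 or more in each library, so that counting error was small beside the spread between libraries. In bulk RNA, fewer cells that hold an RNA and less of it per cell cannot be told apart. Without D391N replicate 1 the difference was -2.89 (adjusted p = 0.027), and with each of the other 5 libraries left out it lay between -2.57 and -2.00 with no call. Quantile normalization gave -1.51 (adjusted p = 0.279), the lowest size of any setting tried. D391N replicate 2 had both the lowest RN7SK level and the lowest share of reads in transcripts under 200 nt, and the part of that share in the result was not tested.

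Reads of RN7SK can also match its pseudogene copies. Of the 282 windows of 50 nt in RN7SK, the length of a read, 216 (76.6%) occurred without mismatch in transcripts of 12 other genes. Of these genes, 9 are RN7SKP copies, and 66 windows occurred in no other gene. Matches to a transcript and to its reverse complement were counted together. The deposited table held 285 RN7SKP identifiers, of which 38 reached the filter. Their summed level was 202, 129 and 148 RPKM in D391N and 379, 452 and 331 RPKM in the controls, also without overlap (log2 difference -1.29, exact permutation p = 0.10). This sum came to between 1.94% and 7.68% of the RN7SK level, and a fit to RN7SK plus its copies gave -2.39 (adjusted p = 0.113).

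LARP7 (ENSG00000174720, GRCh37, chr4:113558233-113578852, plus strand), the La-related protein that protects the 3′ end, was the most abundant partner mRNA. Its level was 107, 152 and 165 RPKM in D391N and 90.6, 89.9 and 80.3 RPKM in the controls, with every D391N library above every control. The means were 141 ± 30.2 and 86.9 ± 5.73 RPKM (SD, n = 3 each). The log2 difference was 0.68 (SE 0.20), with a limma adjusted p of 0.135 and an exact permutation p of 0.10, and 5.61% of all genes tested had a fold change at or above it. LARP7 and RN7SK thus differed in opposite directions, neither past the threshold with all 6 libraries. Without D391N replicate 1 LARP7 was called higher (0.87, adjusted p = 0.027).

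MEPCE (ENSG00000146834, GRCh37, chr7:100025945-100031749, plus strand), the methyltransferase that caps the 5′ end, stood at 18.7, 6.27 and 8.24 RPKM in D391N and at 14.2, 14.99 and 13.9 RPKM in the controls. D391N replicate 1 lay above all controls and the other two D391N libraries below all of them, so the groups overlapped. The means were 11.1 ± 6.69 and 14.4 ± 0.558 RPKM, with a log2 difference of -0.53 (SE 0.38, limma adjusted p = 0.440, exact permutation p = 0.40). The call for MEPCE without D391N replicate 1 (-0.99, adjusted p = 0.030) rests on the remaining 2 D391N libraries, and without D391N replicate 2 the difference was -0.21. With median centring it was -0.31. The gene overlaps ZCWPW1 on the opposite strand by 671 nt in the annotation, and whether counting used the strand is not stated.

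The inhibitor HEXIM1 (ENSG00000186834, GRCh37, chr17:43225842-43229466, plus strand) stood at 7.54, 6.40 and 7.16 RPKM in D391N and at 6.72, 7.95 and 5.76 RPKM in the controls. The groups lay within each other, at means of 7.03 ± 0.582 and 6.81 ± 1.10 RPKM. The log2 difference was 0.05 (SE 0.18, limma adjusted p = 0.884, exact permutation p = 0.80), and its sign turned when control replicate 3 was left out (-0.058). Median centring and quantile normalization each gave 0.27 for HEXIM1. Its paralogue HEXIM2 (ENSG00000168517, GRCh37, chr17:43238067-43247407, plus strand) was the least abundant of the 8. HEXIM2 levels were 2.36, 1.57 and 1.24 RPKM in D391N and 2.08, 2.64 and 2.29 RPKM in the controls, with D391N replicate 1 inside the control range. The log2 difference was -0.46 (SE 0.29, limma adjusted p = 0.382, exact permutation p = 0.30). This difference of HEXIM2 came to -0.70 without D391N replicate 1, -0.26 without D391N replicate 3, -0.24 with median centring, -0.23 with quantile normalization and -0.20 with the mean of the log-normal posterior as the level. HEXIM2 rests on few reads, equivalent to as few as 8.75 in a library, and none of its 8 transcripts reached 1 RPKM alone. HEXIM2-AS1 overlaps both genes on the opposite strand.

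CDK9 (ENSG00000136807, GRCh37, chr9:130547958-130553071, plus strand), the kinase of P-TEFb, stood at 8.07, 8.43 and 11.1 RPKM in D391N and at 11.3, 12.4 and 11.4 RPKM in the controls. D391N replicate 3 lay just under the lowest control, so the absence of overlap rests on a margin far smaller than the spread within D391N. The means were 9.19 ± 1.65 and 11.7 ± 0.635 RPKM, with a log2 difference of -0.36 (SE 0.17, limma adjusted p = 0.265, exact permutation p = 0.10). The CDK9 difference was smaller with median centring (-0.14) and quantile normalization (-0.20).

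Cyclin T1, the main cyclin partner of CDK9, is encoded by CCNT1 (ENSG00000129315, GRCh37, chr12:49082241-49110781, minus strand). CCNT1 stood at 35.0, 43.2 and 51.2 RPKM in D391N and at 34.9, 35.8 and 31.7 RPKM in the controls. Only D391N replicate 1 fell within the control range. The log2 difference was 0.32 (SE 0.18, limma adjusted p = 0.317, exact permutation p = 0.20), with 0.19 without D391N replicate 3, 0.46 without D391N replicate 1 and 0.54 with median centring. CCNT2 (ENSG00000082258, GRCh37, chr2:135675805-135716912, plus strand), which encodes cyclin T2, stood at 14.5, 14.4 and 18.9 RPKM in D391N and at 16.5, 16.7 and 13.8 RPKM in the controls. Its groups overlapped (log2 difference 0.016, SE 0.17, limma adjusted p = 0.968), and the sign turned without D391N replicate 3 (-0.11) and without control replicate 3 (-0.071), while median centring gave 0.23 and quantile normalization 0.12.

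**Figure D2:**
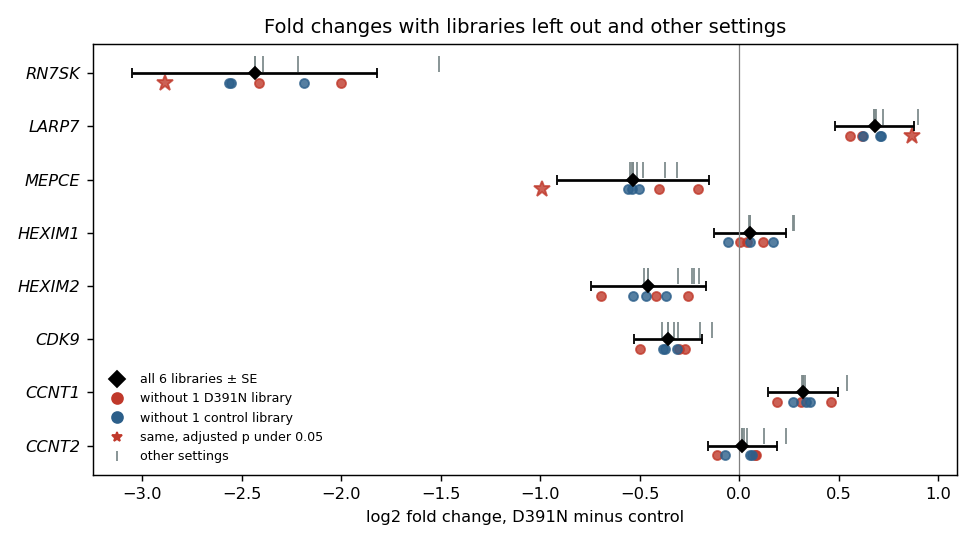
Log2 fold changes, D391N minus control, of the 8 genes with all 6 libraries (black diamonds, bars ± SE), with 1 library left out (circles, or stars where the adjusted p was under 0.05) and under the other settings (grey ticks). RN7SK lies between -2.89 and -1.51 throughout and the only stars, for RN7SK, LARP7 and MEPCE, come from leaving out D391N replicate 1.

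In the controls the order of the levels per length was RN7SK, LARP7 (mean 86.9 RPKM), CCNT1 (34.1), CCNT2 (15.7), MEPCE (14.4), CDK9 (11.7), HEXIM1 (6.81) and HEXIM2 (2.34). Between neighbours only CCNT2 and MEPCE overlapped in their control libraries. In D391N, RN7SK, LARP7 and CCNT1 were again the top 3 in that order, while MEPCE spanned the range from above CCNT2 in replicate 1 to below HEXIM1 in replicate 2.

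Setting the RNA against each partner within a library removes any scaling of that library as a whole. The level of RN7SK was 29.5, 7.22 and 11.3 times the summed level of the 7 partner mRNAs in D391N, and 79.3, 129 and 86.4 times in the controls. RN7SK relative to each single partner was lower in every D391N library than in every control, for all 7 ratios. Log2 differences ran from -1.90 for the ratio to MEPCE, -1.98 to HEXIM2, -2.08 to CDK9, -2.45 to CCNT2, -2.49 to HEXIM1 and -2.76 to CCNT1, to -3.11 for the ratio to LARP7. Each of the 7 two-sided exact permutation tests gave p = 0.10, the smallest possible, and 0.10 after Benjamini-Hochberg adjustment over the 7. The 7 ratios share the RN7SK value of each library, so they are not 7 separate observations. The log2 level of RN7SK minus the mean log2 level of the 7 partners was 8.58, 7.03 and 7.66 in D391N and 9.92, 10.54 and 9.997 in the controls, a difference of -2.39 between group means of 7.76 ± 0.78 and 10.16 ± 0.34 (SD, n = 3 each).

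**Figure D3:**
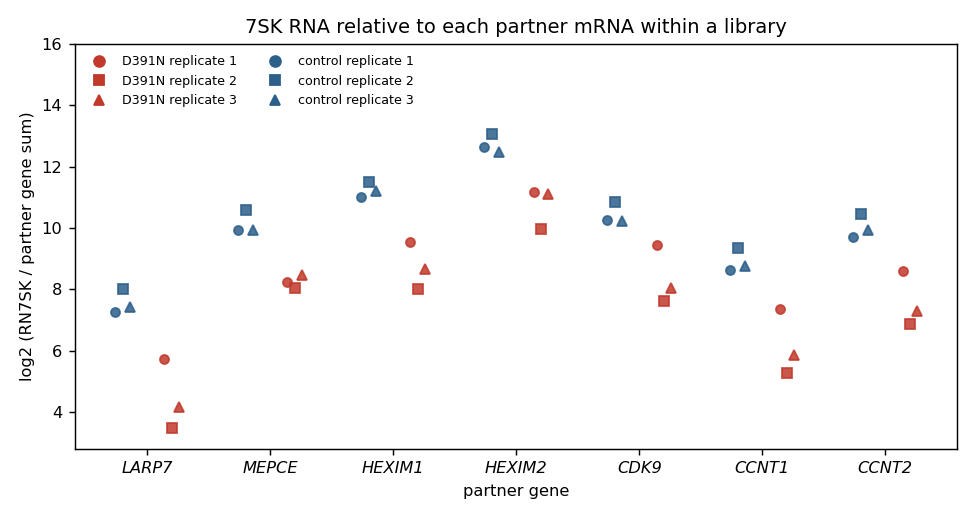
Log2 ratio of the RN7SK level to the level of each partner mRNA within a library, with 1 point per library (blue, control; red, D391N). For each of the 7 partners the 3 D391N points lie under the 3 control points, by 1.90 (MEPCE) to 3.11 (LARP7) between the group means.

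The partner mRNAs also differed in their proportions to each other. LARP7 made up 55.5%, 65.4% and 62.8% of the summed level of the 7 partners in D391N and 51.4%, 49.8% and 50.5% in the controls. The level ratio of LARP7 to MEPCE, the pair that stabilizes the RNA, was 5.74, 24.2 and 20.0 in D391N and 6.36, 5.99 and 5.78 in the controls. D391N replicate 1 was thus at the control ratio and the other two D391N libraries were well above it. The ratio of CCNT1 to CDK9 was 4.33, 5.12 and 4.62 in D391N and 3.10, 2.88 and 2.78 in the controls, and that of CCNT1 to CCNT2 was 2.42, 3.00 and 2.71 against 2.11, 2.15 and 2.29. Both ratios were higher in every D391N library than in every control, whereas the ratio of HEXIM1 to HEXIM2 overlapped (3.19, 4.07 and 5.77 against 3.23, 3.01 and 2.52). These ratios were compared by their values and not tested. The CCNT1 level in them includes the retained-intron transcript ENST00000551989. That transcript stood at 5.15, 20.3 and 20.3 RPKM in D391N and at 3.65, 4.48 and 2.97 RPKM in the controls. The main protein-coding transcript of CCNT1, ENST00000261900, overlapped between the groups. No ratio of this protein-coding transcript alone to CDK9 or CCNT2 was computed. The part of each transcript in the higher CCNT1 ratios was therefore not tested.

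The 8 genes had 49 transcripts in the deposited table, of which 26 reached 1 RPKM. None of the 26 had a limma adjusted p under 0.05, beside 0.0604% of the 54671 transcripts tested. Without overlap, 5 of the 26 were lower in D391N, beside 15.6% of all transcripts tested, and 4 of the 26 were higher, beside 10.1%. Without D391N replicate 1, 8 of the 26 were called, beside 9.07% of all. These were RN7SK, 4 transcripts of LARP7, 1 of MEPCE and 2 of CCNT1. The split of reads among transcripts of a gene is an estimate that is less certain than the gene sum.

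Among LARP7 transcripts, the most abundant protein-coding one, ENST00000505034, took 32.5% of the gene sum in D391N and 34.6% in the controls on average, and was higher in every D391N library (33.3, 45.1 and 59.3 against 33.0, 29.6 and 27.6 RPKM, log2 difference 0.57, adjusted p = 0.335). The protein-coding ENST00000511529 differed more, at 14.1, 31.7 and 34.5 RPKM in D391N and 9.53, 10.6 and 9.62 RPKM in the controls (1.32, adjusted p = 0.183). By contrast ENST00000513553 overlapped between the groups, at 24.9, 8.93 and 27.1 against 20.4, 20.2 and 17.0 RPKM (-0.069, adjusted p = 0.95). Of the LARP7 transcripts annotated as targets of nonsense-mediated decay, the surveillance of mRNAs with early stop codons, ENST00000509622 overlapped (8.75, 15.7 and 2.57 against 10.8, 10.8 and 10.1 RPKM). Another, ENST00000512589, singled out after its values were seen, stood at 7.49, 18.7 and 13.9 RPKM in D391N and at 2.62, 1.78 and 2.36 RPKM in the controls. Its difference of 2.44 had the lowest adjusted p of the 26 transcripts, 0.088, and its share of the LARP7 sum averaged 9.46% in D391N and 2.59% in the controls. The remaining one tested, ENST00000505216, stood at 0.330, 12.8 and 3.47 RPKM in D391N and 0.221, 0.207 and 0.345 RPKM in the controls. Its groups overlapped because D391N replicate 1 lay inside the control range (log2 difference 2.94, adjusted p = 0.266).

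CCNT1 differed in its makeup of transcripts beneath a gene sum that overlapped, although none of its transcripts passed the test. The retained-intron transcript ENST00000551989 stood at 5.15, 20.3 and 20.3 RPKM in D391N and at 3.65, 4.48 and 2.97 RPKM in the controls, a log2 difference of 1.79 (adjusted p = 0.201). It took on average 35.4% of the gene sum in D391N and 10.8% in the controls. ENST00000417344, a target of nonsense-mediated decay, stood at 9.27, 4.66 and 5.94 RPKM in D391N and at 12.2, 11.6 and 12.03 RPKM in the controls (-0.90, adjusted p = 0.220), with 15.4% of the sum in D391N and 35.0% in the controls. The protein-coding ENST00000261900 overlapped, at 19.0, 17.5 and 23.7 against 18.4, 18.05 and 15.6 RPKM. Both of the former were called without D391N replicate 1, at 2.45 (adjusted p = 0.011) and -1.17 (adjusted p = 0.041).

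In MEPCE, the protein-coding ENST00000414441 stood at 8.04, 1.12 and 1.20 RPKM in D391N and at 6.35, 5.51 and 3.39 RPKM in the controls (-1.10, adjusted p = 0.471), so that replicate 1 again stood apart from the other two D391N libraries. Without that library it was called lower (-2.00, adjusted p = 0.030). The other protein-coding MEPCE transcripts, ENST00000310512 (3.80 to 7.49 against 5.77 to 8.22 RPKM) and ENST00000479201 (1.06 to 3.13 against 2.07 to 2.32 RPKM), overlapped. RN7SK and MEPCE are both on the study's list of RNA windows with uridylated reads bound by D391N, which was not analysed here. From its RNA-seq the study reported a small decrease of RNAs at large in D391N cells. It found that bound targets could not be told from other RNAs by their change in level.

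For CDK9, the protein-coding ENST00000373264 was lower in every D391N library (4.87, 3.92 and 3.20 against 5.88, 6.32 and 5.96 RPKM, log2 difference -0.61, adjusted p = 0.284). ENST00000480353, a transcript without a defined coding sequence, was also lower without overlap (1.49, 0.602 and 3.05 against 3.24, 3.26 and 3.63 RPKM), and ENST00000498339 overlapped (0.660, 3.24 and 3.86 against 1.53, 1.27 and 1.23 RPKM). In CCNT2, whose gene sums hardly differed, the protein-coding ENST00000295238 overlapped (2.56, 2.49 and 5.27 against 3.47, 2.83 and 2.39 RPKM). So did ENST00000419781, a target of nonsense-mediated decay (4.43, 7.59 and 5.61 against 3.82, 4.65 and 3.64 RPKM), and the retained-intron ENST00000475094 (0.857 to 1.86 against 1.16 to 2.57 RPKM). ENST00000452839, another target of nonsense-mediated decay, was lower without overlap by a very small margin (3.46, 0.625 and 3.26 against 3.92, 3.46 and 4.39 RPKM, adjusted p = 0.448).

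**Figure D4:**
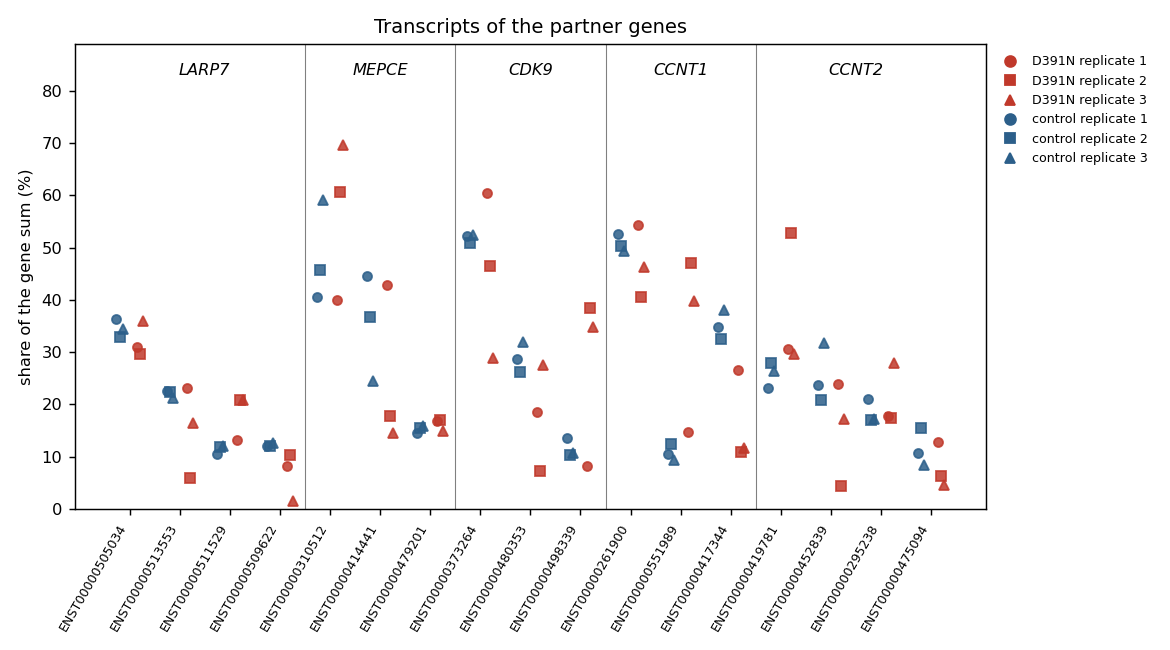
Share of the gene sum, in percent, held by each transcript of LARP7, MEPCE, CDK9, CCNT1 and CCNT2 that took at least 10% of it in either group, with 1 point per library (blue, control; red, D391N). In CCNT1, ENST00000551989 holds 47.0% and 39.7% in D391N replicates 2 and 3 against 9.36% to 12.5% in the controls, and D391N replicate 1 at 14.7% lies near the controls.

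7SK RNA was set beside other structured small RNAs as a description. RN7SL2 (ENSG00000274012), the RNA of the signal recognition particle and likewise a product of RNA polymerase III, stood at 8622, 3550 and 5123 RPKM in D391N and at 15587, 17372 and 13534 RPKM in the controls. It too was lower in every D391N library, at a log2 difference of -1.52 (limma adjusted p = 0.185). The ratio of RN7SK to RN7SL2 was 0.661, 0.472 and 0.580 in D391N and 0.897, 1.34 and 1.02 in the controls, again without overlap (exact permutation p = 0.10), so RN7SK was lower also relative to RN7SL2. RMRP, the RNA of the mitochondrial RNA-processing ribonuclease, overlapped between the groups (16.4, 2.65 and 2.24 against 7.44, 8.98 and 19.0 RPKM). Of 16 such RNAs listed, 11 were matched and tested and none was called, 4 (RN7SL2, VTRNA1-2, VTRNA1-3 and RNU6ATAC) were lower in D391N without overlap, beside 20.7% of all genes tested, and none was higher. Their median log2 difference was -1.52 against -0.090 over all genes, within a range of -3.07 to 0.44. RN7SL1, RPPH1, RNY5, RNU11 and RNU12 were not analysed here.

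Transcripts shorter than 200 nt had a median log2 difference of -0.80 (1798 transcripts), those from 200 nt to under 500 nt, the class of RN7SK, -0.13 (5434), and longer ones -0.049 (44751). Within the class of RN7SK, 3.42% of the transcripts had a fold change at or below its own. The median difference was thus widest in transcripts under 200 nt, a class that does not hold RN7SK. The part of transcript length in the RN7SK result was not tested.

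**Figure D5:**
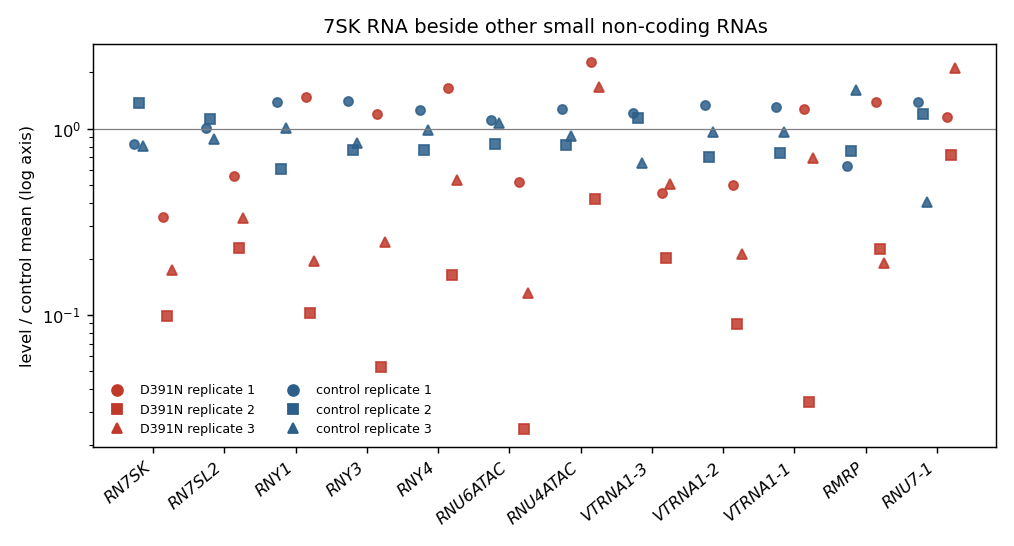
Level of RN7SK and of 11 other small non-coding RNAs in each library divided by the control mean of that RNA (log axis, grey line at 1), with 1 point per library (blue, control; red, D391N). RN7SK, RN7SL2, VTRNA1-2, VTRNA1-3 and RNU6ATAC have all 3 D391N points under all control points, and D391N replicate 2 is the lowest D391N library for RN7SK and for 10 of the 11 others (all but RMRP).

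The pattern of RN7SK over the 6 libraries was most like that of the unnamed gene ENSG00000229861 (Pearson r = 0.996 of log2 levels), CR392039.1 (r = 0.996) and ST6GALNAC5 (r = 0.994), and 498 genes had an r over 0.95. RN7SL2 ranked 5 at r = 0.992. Since each correlation spans the difference between the groups, it describes mostly that difference. Among the partner genes r was -0.914 for LARP7, 0.805 for HEXIM2, 0.777 for MEPCE, -0.748 for CCNT1, 0.694 for CDK9, 0.15 for HEXIM1 and 0.006 for CCNT2, over the same 6 libraries.

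Genes that act with P-TEFb or downstream of it were described from a list of 49, all matched and 48 tested, with EGR1 under the filter. None was called in limma after Benjamini-Hochberg adjustment, and 14 of the 48 had an unadjusted p under 0.05, beside 22.7% of all genes tested. Higher in D391N without overlap were 13 of the 48 (10.5% of all genes) and lower 6 (20.7%), with a median log2 difference of 0.13 against -0.090 over all genes tested. The PAF1 complex and associated elongation factors had 4 of 6 higher without overlap and a group median of 0.56. PAF1 itself stood at 121, 265 and 126 RPKM in D391N and at 114, 119 and 91.3 RPKM in the controls (0.57, adjusted p = 0.340), and SUPT6H overlapped. POLR2A, the largest subunit of RNA polymerase II, stood at 76.4, 190 and 129 against 60.6, 80.4 and 58.8 RPKM (0.90, adjusted p = 0.186), with D391N replicate 1 inside the control range, and POLR2B was higher without overlap (0.27, adjusted p = 0.376).

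Of the super elongation complex, which carries active P-TEFb, 1 of 9 members was higher without overlap. Over all genes tested, 10.5% were higher and 20.7% lower without overlap, and the counts of these small groups are given as a description beside those shares. The 1 member was the scaffold AFF4, at 50.2, 62.6 and 54.5 against 35.8, 39.7 and 41.3 RPKM (0.51, adjusted p = 0.131), and ELL2 overlapped (-0.33). Among factors that recruit or release P-TEFb, 3 of 8 were higher and 2 lower without overlap, with the helicases DHX9 at 305, 438 and 432 against 290, 303 and 225 RPKM and DDX21 at 161, 224 and 207 against 152, 146 and 130 RPKM. The hnRNPs that take up 7SK RNA released from P-TEFb had 2 of 4 higher without overlap, but the most abundant, HNRNPA1 and HNRNPA2B1, overlapped. Pause factors had 2 of 6 lower, with SUPT4H1 and SUPT5H of DSIF overlapping, and of the other transcription kinases and their partners 1 of 6 was higher, with CCNH and CDK12 overlapping. Of 7 tested short-lived mRNAs known to depend on P-TEFb, 1 was higher and 2 were lower. MYC stood at 29.1, 21.6 and 34.1 against 55.7, 51.1 and 76.8 RPKM, a log2 difference of -1.11 with the lowest adjusted p of the list (0.092), and JUN overlapped. Without D391N replicate 1, 5 of the 48 were called (CDC73, LEO1, MNAT1 and POLR2A higher and IER2 lower), beside 10.9% of all genes tested, so the share of the list was near the background.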

How the data were processed

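RNA-seq of 3 D391N and 3 control libraries was used, and the CLIP and RIP experiments of the study were not used here. The authors used cutadapt for trimming, Segemehl for alignment to the Ensembl transcriptome (GRCh38) and BitSeq for the levels. Tool versions are not given in the sources used here. The values the authors deposited are, per library and for 207167 transcripts, RPKM on a natural log scale, as a posterior mean, and the variance of that posterior, a score of precision.

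Deposited natural log values were turned into RPKM by exponentiation and summed per Ensembl gene identifier. Symbols were matched for 89.3% of identifiers, of which 647 were named through transcript identifiers. log2(RPKM + 0.1) was fitted with limma 3.58.1 (eBayes with a variance trend, R 4.3.3), once over genes and once over transcripts, keeping features at a mean of 1 RPKM or more. Tests were two-sided, with Benjamini-Hochberg adjustment over all features tested and a threshold of 0.05. All adjusted p-values in the text are from these limma fits unless an exact permutation test is named. Tables and plots used Python 3.11.15, pandas 2.3.3, numpy 2.4.6, scipy 1.17.1 and matplotlib 3.10.9. Reads behind a value were estimated from its posterior variance, with an SD of 3.19% to 33.8% for the partner genes, and cover counting and assignment error only. Relative depth was estimated from the level of transcripts without reads. Read totals were not used here. Gene positions are from the GENCODE annotation of GRCh37, which is not the build of the deposited levels, so no sequence was read by position.

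The fit was tested on simulated gene data. Of 200 of 20714 genes changed by 1, 2 and 3 on the log2 scale, 0.0%, 60.5% and 80.5% were called, with 1, 7 and 12 false calls. No change of 1 was therefore recovered in this setting. The simulation changed few genes and gave both groups the same spread, unlike the real libraries. These shares therefore do not measure the recovery in the real data.

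The genes and lists were chosen with earlier results of these data known. Of the transcripts, those with at least 10% of the gene sum in either group were named. From the elongation list the 2 most abundant genes of each role were named, and of the small RNAs RN7SL2 and RMRP. The 3 genes most like RN7SK were also named. Genes that the text names beside these, as the members of a small count, were picked after their values were seen.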

Additional observations from a re-analysis of the deposited data

How the results depend on the processing

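All 8 genes kept their direction under other pseudocounts, filters, scalings and point estimates, except that HEXIM2 was not tested at a mean of at least 5 RPKM or when only transcripts of at least 1 RPKM were summed. No setting other than leaving out D391N replicate 1 called any of the 8. The genes called at large, 29, became 6 with a mean of at least 5 RPKM, 14 with median centring, 18 without a filter, 16 and 61 with pseudocounts of 0.01 and 1, 17 with quantile normalization and 19 when only transcripts of at least 1 RPKM were summed. The transcripts called, 33, became 52 without the variance trend, 17 with a mean of at least 5 RPKM, 18 without a filter and 142 with a pseudocount of 1. Median centring moved the median over all genes from -0.090 to 0.13.

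With each library left out in turn, the genes called ranged from 2 to 2261, where 2261 came without D391N replicate 1 and at most 11 without any other, and the transcripts called ranged from 2 to 4961. Members called ranged from 0 to 3 genes and from 0 to 8 transcripts, and genes of the elongation list from 0 to 5. RN7SK ranged from -2.89 to -2.00, and RN7SK relative to the mean of its partners from -2.81 to -2.03. The cause of these differences was not tested. Signs turned for HEXIM1 and its transcript ENST00000332499 (range -0.058 to 0.17, below 0 without control replicate 3) and for CCNT2 (-0.11 to 0.083, below 0 without D391N replicate 3 and, at -0.071, without control replicate 3). They also turned for ENST00000513553 (-0.35 to 0.44, above 0 without D391N replicate 2 and, at 0.0023, with median centring), for ENST00000509622 (-1.13 to 0.15, above 0 without D391N replicate 3) and for ENST00000295238 (-0.18 to 0.35, below 0 without D391N replicate 3).

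With the replicate number as a block, 2 genes and 7 transcripts were called, 0 of the 8 genes among them, and RN7SK stood at -2.43 (adjusted p = 0.194). The deviations of same-numbered libraries from their group correlated at 0.070, 0.22 and -0.11. Those of differently numbered libraries correlated at -0.26 to 0.15. With 3 libraries per group these values cannot decide whether the numbers mark pairs. Depth limits HEXIM2 most, and 3 libraries per group limit every exact test to p = 0.10.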
